A study of Homo sapiens with 6 samples.

Results

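The Rag GTPases and the MiT/TFE transcription factors were described in HK2 cells in which OCRL had been silenced. The genes are the 4 Rag GTPases RRAGA, RRAGB, RRAGC and RRAGD and the 4 MiT/TFE factors TFEB, TFE3, TFEC and MITF. All 8 were measured, by 11 probe sets, out of 11963 genes and 22215 probe sets tested. The 8 genes were chosen by the families they belong to and by their log2 differences between OCRL siRNA and control siRNA on these same arrays, which were already known. Those differences are therefore given as a description of the arrays, with no p-value.

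HK2 is an established human cell line derived from the proximal tubule of the kidney, and OCRL is the phosphoinositide 5-phosphatase mutated in Lowe syndrome. Cells grown in DMEM F12 with insulin, transferrin and selenium were transfected at 30% confluence, with Dharmafect 4, either with a non-targeting siRNA (control) or with OCRL siRNA, and were harvested at 96 h. Independent experiments, per the labels, gave 3 arrays to each group, so 6 single-colour Affymetrix GeneChips were compared. All 3 arrays of the knockdown group come from cells given the same OCRL siRNA, so lower OCRL and any other effect of that reagent cannot be told apart, and in such bulk samples fewer expressing cells and less RNA per cell cannot be told apart either.

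Rag GTPases work as pairs on the surface of the lysosome, with RagA or RagB bound to RagC or RagD. When amino acids are plentiful, the pair carries GTP on RagA or RagB and GDP on RagC or RagD, and it brings the kinase complex mTORC1 to the lysosome, where Rheb activates it. MiT/TFE factors are basic helix-loop-helix leucine zipper proteins that bind E-box letters, among them the CLEAR element in the promoters of lysosomal and autophagy genes. RagC and RagD also bind MiT/TFE factors and present them to mTORC1, whose phosphorylation keeps them in the cytoplasm, and RRAGC and RRAGD are themselves known targets of these factors. The arrays measured mRNA and hold no reading of phosphorylation or of the position of a protein in the cell.

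Promoter stretches are shown because the binding letters of the MiT/TFE factors can be looked for in front of the Rag genes. RefSeq windows from 250 bases before to 50 bases after a start site (GRCh38.p14) were matched by symbol for 6 of the 8 genes, in 11 windows, and not for RRAGA and RRAGD. The E-box CACGTG, sought on both strands, lay in 2 of the 11 windows, those of RRAGC and RRAGB. Over all 35116 windows 7.26% held it. The stretches below run 5′ to 3′ along the gene, with CACGTG in capitals. That of RRAGC lies on the minus strand at chr1:38859819-38859944, from 172 to 47 bases before the start site. That of RRAGB lies on the plus strand at chrX:55717574-55717748, from 175 bases to 1 base before it.
RRAGC: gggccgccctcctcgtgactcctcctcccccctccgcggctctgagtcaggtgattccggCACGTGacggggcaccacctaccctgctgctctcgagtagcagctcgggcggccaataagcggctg
RRAGB: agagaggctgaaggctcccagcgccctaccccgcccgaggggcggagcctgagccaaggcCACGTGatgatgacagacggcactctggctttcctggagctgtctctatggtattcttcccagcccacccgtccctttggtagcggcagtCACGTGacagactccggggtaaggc

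In RRAGC the single copy began 112 bases before the start site. In RRAGB copies began 115 and 25 bases before it, and its last copy began in the part of the window after it. The longer form TCACGTGA, which contains CACGTG, was found in the RRAGB window and in 0.980% of all windows. The CLEAR palindrome, which contains TCACGTGA in turn, was found at the same place in RRAGB and in 0.353% of all windows. CATGTG, the E-box preferred by MITF at many melanocyte genes, was found in 0 of the 11 windows and in 11.1% of all. The 3 windows of TFEB, the 3 of MITF, the 2 of TFEC and the 1 of TFE3 held none of these letters. A match describes the letters and shows no binding, and the arrays do not measure binding.

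The knockdown lowered OCRL mRNA on every array. The brighter OCRL probe set, 203446_s_at, read 9.49, 9.48 and 9.51 (log2 value) on the control arrays and 7.52, 7.49 and 7.40 on the OCRL siRNA arrays, which left 24.6% of the control level. The dimmer one, 208316_s_at, left 49.7%. The groups did not overlap for either, and the exact two-sided permutation test over 20 assignments of the arrays gave p = 0.10, the smallest it can give.

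Changes were frequent in this comparison, and the counts below need that background. By limma with Benjamini-Hochberg adjustment at 0.05, 23.1% of all probe sets passed, 13.2% higher and 9.89% lower with OCRL siRNA, and the groups did not overlap in 40.7%. With 1 probe set per gene, the brightest over the 6 arrays, 26.0% of genes passed, 15.5% higher and 10.5% lower. The share of passing probe sets that were higher was 57.2% as deposited and 42.0% after the array medians were set equal. Among the 8 genes 3 passed higher (RRAGC, RRAGD and TFEB), 1 passed lower (MITF) and 4 did not pass (RRAGA, RRAGB, TFE3 and TFEC). Among the 11 probe sets 4 passed higher, 1 passed lower and 6 did not pass, and the groups did not overlap in 7. Because these values chose the genes, nothing is read from the counts against the background. The median log2 difference was 0.09 over the 8 genes and 0.0005 over all genes.

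**Figure D1:**
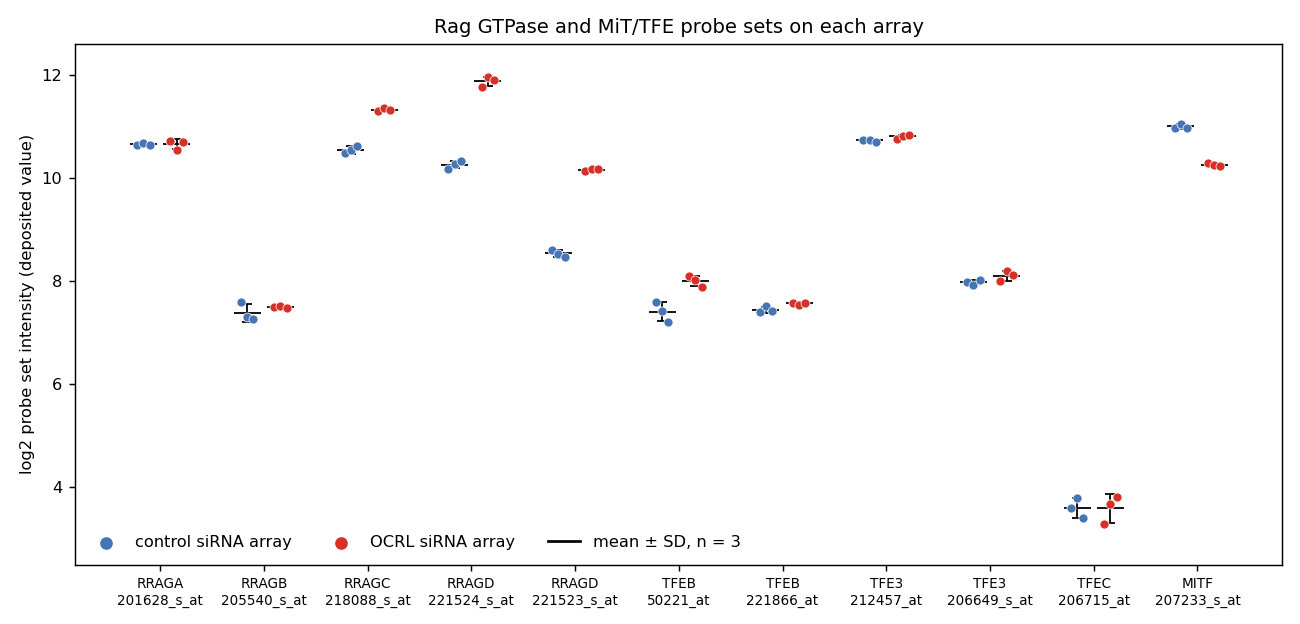
Log2 value of each probe set of the Rag GTPases and MiT/TFE factors on each array, with blue points for the 3 control and red points for the 3 OCRL siRNA arrays and black lines for the mean ± SD of each group (n = 3). Levels of different probe sets are not comparable with each other. The groups lie apart by more than 1 log2 unit for both RRAGD probe sets, whereas the points of RRAGA, RRAGB, TFEC and the dimmer TFE3 set overlap.

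The RagC and RagD partners, which carry GDP in the active pair, were the Rag genes that rose. RRAGC encodes RagC, the partner whose nucleotide state is set by the GTPase-activating protein folliculin. RRAGC (218088_s_at) read 10.48, 10.54 and 10.63 on the control arrays and 11.29, 11.35 and 11.32 on the OCRL siRNA arrays. All 3 knockdown arrays lay above all 3 controls, with 0.66 between the nearest values. The log2 difference was 0.77 (SE 0.053, n = 3 per group, 95% interval 0.65 to 0.90), a 1.71-fold rise.

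RRAGD encodes RagD, the close relative of RagC that is known to be strongly induced by MiT/TFE factors and that is mutated in an inherited kidney tubulopathy with cardiomyopathy. Its brighter probe set, 221524_s_at, read 10.18, 10.26 and 10.33 on the control arrays and 11.77, 11.95 and 11.90 on the OCRL siRNA arrays. Its dimmer probe set, 221523_s_at, read 8.61, 8.53 and 8.48 against 10.13, 10.18 and 10.17. Both sets separated the groups widely, with nearest values more than 1 log2 unit apart. The log2 difference was 1.61 by the brighter set (SE 0.066, 95% interval 1.46 to 1.77), a 3.06-fold rise. The dimmer set gave a 3.08-fold rise (SE 0.050 on the log2 scale). In order of size RRAGD was rise number 16 and RRAGC rise number 150 among the 11963 genes.

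The RagA and RagB partners, which carry GTP in the active pair, did not pass. RRAGA encodes RagA, the form that most tissues use. RRAGA (201628_s_at) read 10.64, 10.68 and 10.64 on the control arrays and 10.71, 10.54 and 10.71 on the OCRL siRNA arrays. The groups overlapped, and the 95% interval of the log2 difference ran from -0.14 to 0.14. RRAGB encodes RagB, a near copy of RagA. RRAGB (205540_s_at) read 7.59, 7.30 and 7.27 against 7.49, 7.52 and 7.47. Control replicate 1 lay above every knockdown array and the other 2 controls lay below them. The log2 difference was 0.11 (95% interval -0.10 to 0.32). Without control replicate 1 it was 0.21, and RRAGB then passed as higher. All probe sets of the Rag genes end in _s_at, and such sets can match more than 1 transcript. How far RagA and RagB transcripts, or RagC and RagD transcripts, share signal was not analysed here.

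The 4 Rag genes thus spanned log2 differences from -0.001 to 1.61, with a median of 0.44. Because these values had a part in choosing the genes, this spread is a description, and no gene was tested against another.

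**Figure D2:**
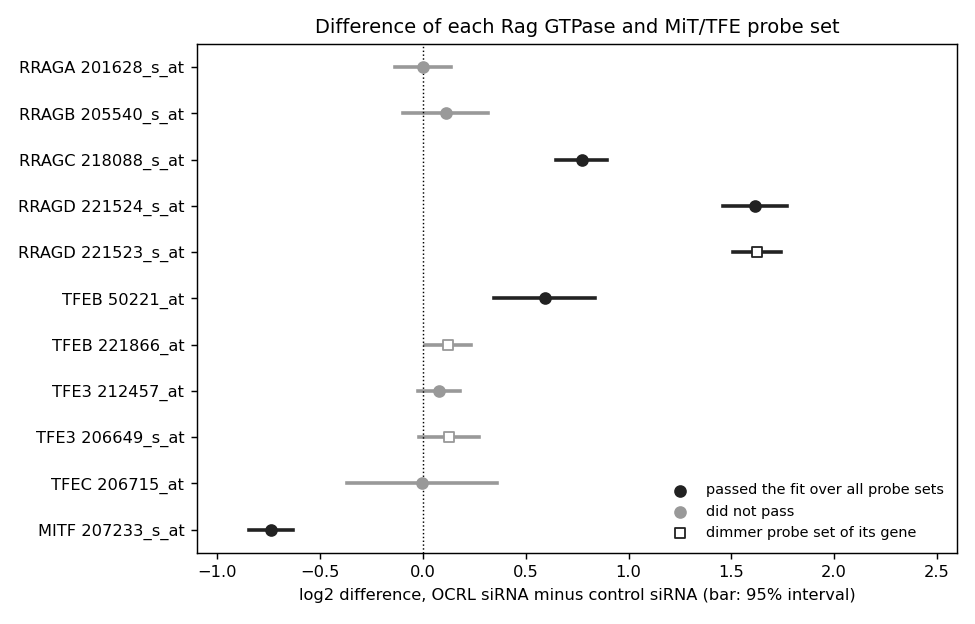
Log2 difference, OCRL siRNA minus control siRNA, of every probe set of the Rag GTPases and MiT/TFE factors with its 95% interval from limma (n = 3 arrays per group), black where the probe set passed and grey where it did not, with squares for the dimmer set of a gene. Of the sets that passed, those of RRAGD (1.61 by the brighter set), RRAGC (0.77) and TFEB (0.59) lie above 0 and that of MITF (-0.74) lies below it. The other TFEB set (0.12) did not pass, though its interval lies above 0.

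Among the MiT/TFE factors, TFEB rose by 1 of its 2 probe sets and MITF fell. TFEB is the member best known for driving lysosomal and autophagy genes when it enters the nucleus. Its probe set 50221_at read 7.60, 7.41 and 7.21 on the control arrays and 8.09, 8.02 and 7.89 on the OCRL siRNA arrays. The groups lay 0.29 apart, less than the 0.38 spanned by the controls. The log2 difference was 0.59 (SE 0.103, 95% interval 0.35 to 0.84), a 1.51-fold rise.

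The other TFEB probe set, 221866_at, read 7.40, 7.51 and 7.43 against 7.58, 7.54 and 7.58. Here the groups lay only 0.03 apart. Its log2 difference was 0.12 (SE 0.047, 95% interval 0.01 to 0.23), and it did not pass. This was the single disagreement among the 3 genes with more than 1 probe set: in TFEB the differences given by the 2 sets were 0.47 apart, against 0.01 in RRAGD and 0.05 in TFE3. The 2 TFEB sets were almost equally bright, with control means of 7.41 for 50221_at and 7.44 for 221866_at. Over all 6 arrays 50221_at is the brighter and stands for TFEB. If the control arrays alone decide, a choice added after the values were seen, 221866_at stands for it and TFEB does not pass. The same change of rule exchanged the probe set of 98 of the 11963 genes. With the mean of both sets the TFEB difference was 0.36 and passed. The difference of 221866_at was 0.08 after quantile normalisation and 0.08 after median centring, and it passed in neither. Both sets thus read higher but only 50221_at passed. Whether TFEB is called higher, and by how much, depends on which set is read.

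**Figure D3:**
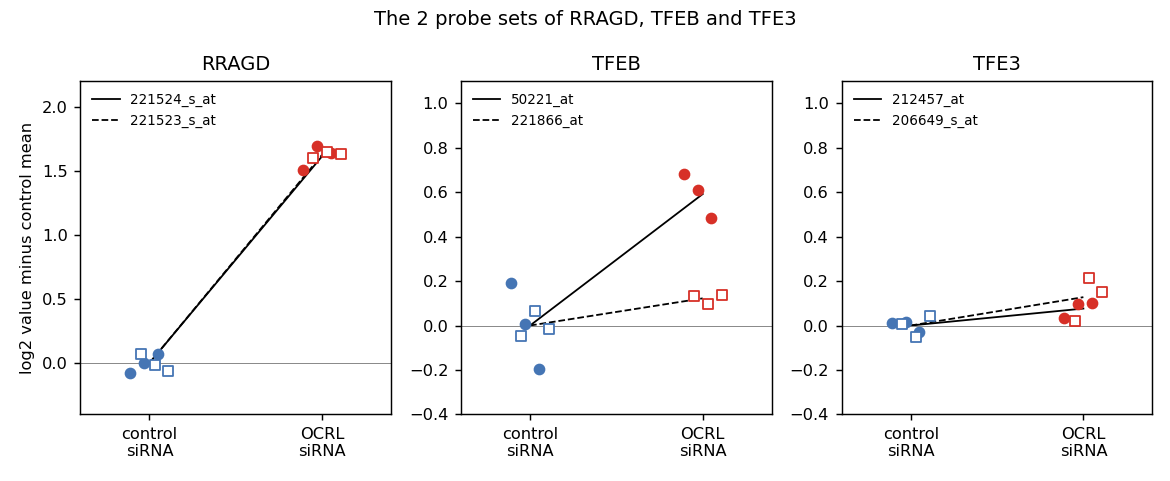
Log2 value minus the control mean of the same probe set for the 2 probe sets of RRAGD, TFEB and TFE3, with a panel per gene (the axis of RRAGD is longer), filled circles and solid lines for the brighter set and open squares and dashed lines for the dimmer set, and 3 arrays per group. The lines of RRAGD end together, at 1.61 and 1.62, and those of TFEB end apart, at 0.59 and 0.12.

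MITF is the family member known for melanocytes and osteoclasts, and its longer isoforms are made in many other cells, kidney epithelium included. MITF (207233_s_at) read 10.98, 11.05 and 10.98 on the control arrays and 10.30, 10.25 and 10.24 on the OCRL siRNA arrays. Every knockdown array lay below every control array, with 0.68 between the nearest values. The log2 difference was -0.74 (SE 0.045, 95% interval -0.85 to -0.63), which left 59.9% of the control level. It was fall number 111 in order of size. The single probe set cannot tell which MITF isoforms it read.

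TFE3 is a widely expressed factor with targets that largely overlap those of TFEB. Its brighter probe set, 212457_at, read 10.74, 10.75 and 10.70 against 10.76, 10.82 and 10.83. The groups did not overlap, but they lay only 0.016 apart. The log2 difference was 0.08 (95% interval -0.03 to 0.18), and the set did not pass. The dimmer set, 206649_s_at, read 7.98, 7.92 and 8.02 against 7.99, 8.19 and 8.12 and did not pass either, with overlapping groups. TFEC, whose expression is known mainly from macrophages, read 3.60, 3.78 and 3.40 against 3.28, 3.67 and 3.82 (206715_at). Its control mean lay at percentile 3.07 of all probe sets, which is the dim end of the scale. The 95% interval of its log2 difference ran from -0.37 to 0.36.

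The regulators upstream of the Rag GTPases went both ways, where the Rag genes that passed went up. The list held Ragulator, which anchors the pair to the lysosome, and GATOR1, which acts on RagA and RagB. It also held GATOR2, KICSTOR, which positions GATOR1, the amino acid sensors and the folliculin complex. Of 30 genes 16 were measured, of which 3 rose, 4 fell and 9 did not pass (43.8% passed, median log2 difference 0.0004), and 2 rather than 4 fell when any one of control replicates 1, 2 and 3 or OCRL siRNA replicates 1 and 2 was left out. LARS1, the leucyl-tRNA synthetase that also takes part in leucine sensing, fell by 0.37 (SE 0.039). WDR59, a GATOR2 subunit, fell by 0.51 (SE 0.054), though its 2 other probe sets did not pass and the mean of its sets gave -0.08 and did not pass. SESN1, a sestrin that binds GATOR2, rose by 0.26 (SE 0.052). NPRL2, a GATOR1 subunit, rose by 0.23 (SE 0.045), and its other probe set did not pass. NPRL2 was at 0.15 and passed with the mean of both sets, and it was at 0.06 and did not pass without sets ending in _s_at or _x_at.

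Around mTORC1 itself, 15 of 20 genes of the complex, Rheb and TSC were measured. Of these 3 rose, 0 fell and 12 missed the limma threshold (20% passed, median 0.09). At an unadjusted p under 0.05 there were 6, of which 1 was lower. In 4 other settings 1 gene of the list passed as lower, namely after median centring, without sets ending in _s_at or _x_at, with the mean of the sets of a gene and with the most variable set. DDIT4 encodes REDD1, an inhibitor of mTORC1 that works through TSC. It rose 2.43-fold, from 9.97 ± 0.08 to 11.25 ± 0.11 (log2 value, mean ± SD, n = 3), a log2 difference of 1.28 (SE 0.070). EIF4EBP1, the mTORC1 substrate that holds back cap-dependent translation, rose by 0.33 (SE 0.049), and DEPTOR, a subunit that inhibits mTOR, rose by 0.30 (SE 0.061). Both an inhibitor and a substrate of the kinase were therefore among the genes that rose.

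Kinases, phosphatases and binding partners of the MiT/TFE factors also went both ways. Of 29 genes 25 were measured, of which 4 rose, 6 fell and 15 did not pass (40.0% passed, median -0.04). Without control replicate 2, without OCRL siRNA replicate 1 and after quantile normalisation or median centring, 2 rather than 4 were higher. PRKCA, protein kinase C alpha, fell 1.95-fold (log2 difference -0.96, SE 0.066), and 1 of its 3 other probe sets also passed as lower. With the mean of its sets the PRKCA difference was -0.41 and passed. CDK4, a cell cycle kinase that phosphorylates TFEB in the nucleus, rose by 0.44 (SE 0.050). YWHAZ, a 14-3-3 protein of the kind that holds phosphorylated factors in the cytoplasm, fell by 0.21 (SE 0.039), and 2 of its 4 other sets passed as lower. The size of the YWHAZ fall depends on the probe set read, at -0.38 with the mean of its sets and -1.15 with the most variable of them. STUB1, a ubiquitin ligase that acts on phosphorylated TFEB, fell by 0.21 (SE 0.041).

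Of the known targets of these factors, those of the lysosome that passed were higher by the fit above, and 7 other settings gave lower calls too. Of 48 lysosomal genes of the CLEAR network 40 were measured, of which 16 rose, 0 fell and 24 missed the limma threshold (40.0% passed, median 0.13). At an unadjusted p under 0.05 there were 21, of which 1 was lower. Once the array medians were set equal, 12 rose, 1 fell and the list median was 0.09. With the replicate block, without OCRL siRNA replicate 1 and after quantile normalisation 1 gene passed as lower. The same held without dim probe sets and with the mean of the sets of a gene. With trend and robust settings 3 passed as lower. The protease genes CTSS and CTSB rose by 0.91 (SE 0.042) and 0.84 (SE 0.043), CTSB with its 3 other probe sets and CTSS without its 1 other. CTSA, which protects lysosomal glycosidases, rose by 0.66 (SE 0.046), and NPC1, the cholesterol exporter, by 0.57 (SE 0.039), without its 1 other set. With the mean of both sets NPC1 stood at 0.24 and passed. Of 24 autophagy and feedback targets 20 were measured, of which 5 rose, 1 fell and 14 did not pass (30.0% passed, median 0.08). The cargo receptor gene SQSTM1 rose by 0.59 (SE 0.045). GABARAPL1 and MAP1LC3B, which coat the forming autophagosome, rose by 0.33 each (SE 0.045 and 0.046), MAP1LC3B by 0.14 with the mean of its sets, and PPARGC1A, a coactivator of mitochondrial genes, fell by 0.35 (SE 0.048).

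The targets known from the specialised tissues of MITF, TFE3 and TFEC gave few calls. Of these targets TYRP1, MLANA, TRPM1, OCA2, BCL2A1, EDNRB, TNFRSF11A and DCSTAMP lay below the lower quartile in both groups, where differences are compressed. Of 20 melanocyte genes 17 were measured, of which 2 rose, 0 fell and 15 missed the limma threshold (11.8% passed, median -0.02), and 4 had an unadjusted p under 0.05. Both that rose encode Rab GTPases of melanosome transport, RAB38 (log2 difference 0.79, SE 0.040) and RAB27A (0.54, SE 0.052), and MITF itself fell. Of 14 osteoclast and macrophage genes 11 were measured, of which 1 rose, 1 fell and 9 did not pass (18.2% passed, median 0.01). NFATC1, a transcription factor of osteoclast formation, rose by 0.57 (SE 0.052), with 1 of its 4 other probe sets passing, and its difference was -0.01 once sets ending in _s_at or _x_at were left out. With the probe set brightest in the control arrays NFATC1 was at 0.16 and did not pass, which left 0 genes of the list higher, and with the mean of its sets it was at 0.24 and passed. DCSTAMP, the osteoclast fusion protein gene, fell by 0.27 with levels below the lower quartile on every array, and it did not pass when any one of control replicates 1, 2 and 3 or OCRL siRNA replicates 1 and 2 was left out (limma adjusted p = 0.0567 to 0.104). Whether any list differed from another was not tested.

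Taking each gene once, 138 of the 176 genes in these lists were measured, of which 33 rose, 12 fell and 93 did not pass. That is 32.6% against the 26.0% of all genes, with a median of 0.06. Without probe sets ending in _s_at or _x_at, 24 rather than 45 of them passed. The lists were drawn up with earlier results of these arrays known, so their counts are a description.

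**Figure D4:**
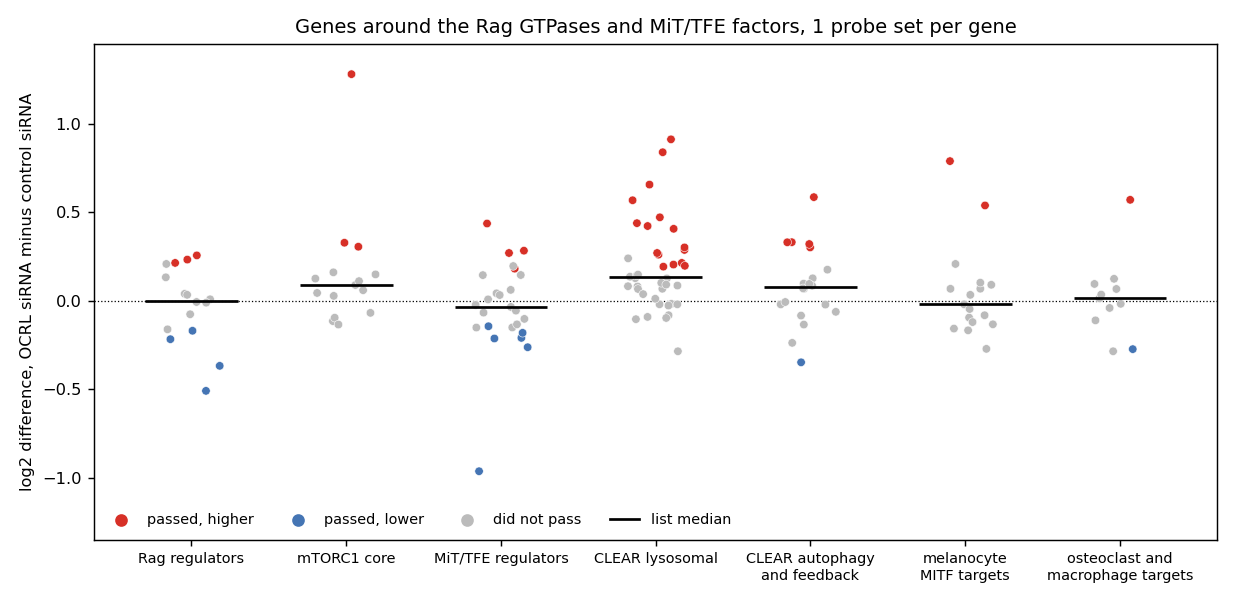
Log2 difference, OCRL siRNA minus control siRNA, of each measured gene in the 7 pathway lists, with 1 point per gene, red or blue where it passed as higher or lower at an adjusted p under 0.05 (limma) and grey where it did not, and a black line at the list median. The lysosomal targets have 16 red points and 0 blue ones, whereas the regulators of the Rag GTPases have 3 red and 4 blue.

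The promoter letters shown above for RRAGC and RRAGB can be set beside these lists. CACGTG was present for 14 of the 27 lysosomal CLEAR genes with a window (51.9%), a network that was itself defined through this element. Of the 14 genes with it 6 rose, and of the 13 without it 5 rose. It was present for 4 of 18 autophagy and feedback targets (22.2%), 4 of 20 MiT/TFE regulators, 2 of 11 genes around mTORC1 (18.2%), 1 of 15 Rag regulators (6.67%), 1 of 7 osteoclast and macrophage targets (14.3%) and 0 of 13 melanocyte targets. Over all genes with a window it was present for 8.77%. Among the Rag genes with a window, RRAGC held 1 copy and rose, and RRAGB held 3 and did not pass.

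The genes whose pattern over the 6 arrays lay nearest to each of the 4 genes that passed were found by root mean square distance, after each gene was centred on its control mean. Nearest to RRAGC were TNFRSF14, a receptor of the tumour necrosis factor family (distance 0.0372, log2 difference 0.77), DDB2, a DNA damage recognition gene (0.0379, 0.80), and PGBD5, a transposase-derived gene (0.0403, 0.73). Nearest to RRAGD were the chondroitin sulfate enzyme gene CSGALNACT1 (distance 0.102, log2 difference 1.73), the carbonic anhydrase gene CA12 (0.110, 1.64) and ALOX5AP, of leukotriene synthesis (0.116, 1.47). None of these 6 genes was in a pathway list.

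Nearest to TFEB by its brighter probe set were ZNF273 (distance 0.0386, log2 difference 0.59), the transcriptional cofactor gene ZFPM2 (0.0661, 0.53) and CADPS2, of vesicle exocytosis (0.0748, 0.56). Nearest to MITF were TOR1AIP1, of the nuclear membrane (distance 0.0264, log2 difference -0.75), the cytokine-like gene CYTL1 (0.0287, -0.75) and ARPP19, a phosphatase inhibitor of the cell cycle (0.0310, -0.76). With 3 arrays a group, this distance mostly reads the size of the difference and the spread of the replicates.

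The markers of the cell type were checked because several of these factors are known from other cells. Of 19 measured genes of kidney epithelium and proximal tubule, 10 lay above the median probe set in the control arrays, among them KRT8, KRT18, CDH6 and PAX8, and 5 lay below the lower quartile on all arrays, LRP2 and AQP1 among them. With OCRL siRNA 3 of the 19 rose, namely ANPEP (0.56, dim in both groups), DPP4 (0.68) and MME (0.61). The 6 that fell were KRT7 (-1.49), CDH6 (-1.04), EPCAM (-0.81), KRT19 (-0.38), KRT8 (-0.38) and PAX8 (-0.29). The mean log2 value of the 19 genes ran from 8.17 to 8.22 on the control arrays and from 7.98 to 8.05 on the OCRL siRNA arrays. Of 15 leukocyte and macrophage markers 0 lay above the median in control cells and 7 lay below the lower quartile on all arrays, PTPRC among them. The lysosomal membrane gene LAPTM5 was the 1 that rose (log2 difference 2.31). The other 14 did not pass, and the median difference of the list was -0.03. The mean of the list, with LAPTM5 in it, ran from 5.31 to 5.40 against 5.47 to 5.55.

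Of 7 melanocyte markers 1 lay above the median, GPR143, and 0 passed by limma, with 1 at an unadjusted p under 0.05. Their mean was 6.05 to 6.16 on the control arrays and 6.02 to 6.09 on the OCRL siRNA arrays. Among 9 endothelial markers 1 lay above the median and rose, ENG (0.27). Among 10 fibroblast markers 2 lay above the median, COL1A1 and LUM, of which COL1A1 did not pass and LUM fell by 0.61. The part of these marker shifts in the values of RRAGC, RRAGD, TFEB and MITF was not tested.

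Under other ways of processing, the differences of RRAGC, RRAGD and MITF kept their direction and passed in all 14 settings that gave them a value. Not all of these settings could move a difference. RRAGC and MITF have a single probe set, so choosing or averaging sets had to return the same difference. The replicate block, the trend and robust settings and leaving out dim probe sets also left the differences of all 3 genes as they were. RRAGC ran from 0.73 to 0.81, RRAGD from 1.57 to 1.67 and MITF from -0.79 to -0.71. TFEB ran from 0.12 to 0.69 and passed in 14 of 15. RRAGB ran from 0.05 to 0.21 and passed in 1 of 14. RRAGA (-0.05 to 0.05), TFE3 (0.03 to 0.13) and TFEC (-0.12 to 0.15) passed in none.

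**Figure D5:**
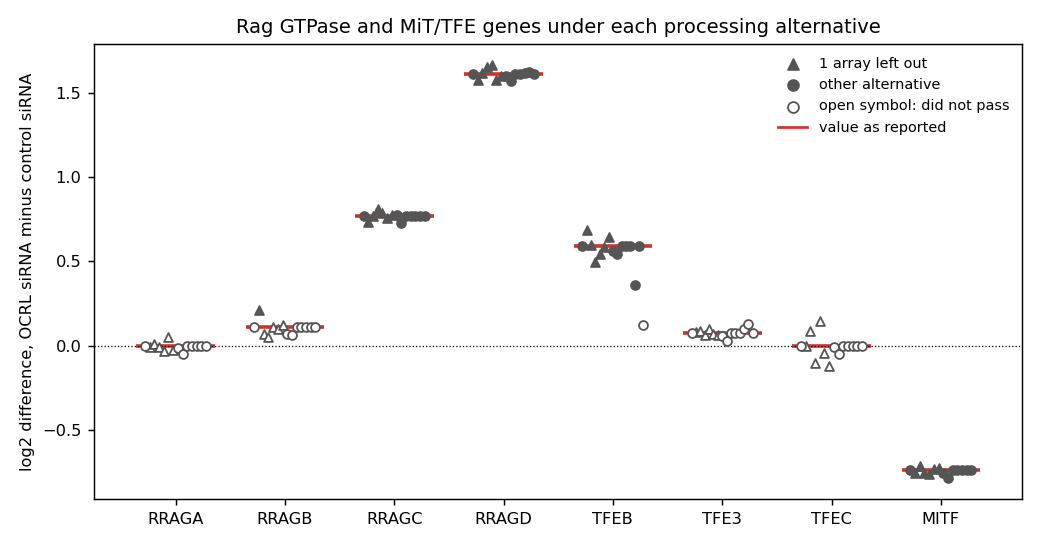
Log2 difference, OCRL siRNA minus control siRNA, of each of the 8 genes under the deposited scale and every other setting, with triangles for 1 array left out, circles for other alternatives, filled where the gene passed, and a red line at the value as reported. The points of RRAGD (1.57 to 1.67), RRAGC and MITF stay close together, and those of TFEB spread from 0.12 to 0.69.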

How the data were processed

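Total RNA was biotin-labelled and hybridised to 1-colour arrays, 3 per group, per the labels' protocols. The authors deposited 1 value per probe set and array on the log2 scale, normalised with affy and RMA, per the submitters' processing notes, and their versions are not given in the sources used here. RMA gives the arrays a common distribution, so a shift shared by most genes is removed, and differences of dim probe sets are compressed. Array medians still ran from 7.23 to 7.24 on the control arrays and from 7.27 to 7.30 on the OCRL siRNA arrays. Pearson's r over the probe sets of a pair of arrays was 0.998 to 0.999 within and 0.994 to 0.995 between groups. The number of arrays limits precision.

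Of 22277 probe sets, 62 AFFX controls were left out. Platform annotation gave 1 gene symbol for 19064, several for 1043 and none for 2108. A gene was represented by its brightest probe set over the 6 arrays. OCRL siRNA was set against control by limma 3.58.1 under R 4.3.3 (lmFit, eBayes, two-sided, SE moderated), adjusted over 22215 probe sets, threshold 0.05, and the fit was tested on simulated data. The p-values set each mean difference against the moderated spread between these arrays. The 8 genes and all lists were chosen with earlier results of these data known. Genes named are the 8 genes, OCRL, the 3 nearest in pattern to each of RRAGC, RRAGD, TFEB and MITF, the passing genes of a pathway list in order of p, up to 4, and the passing genes of marker lists with 5 or fewer. Other marker genes, those named beside counts and those named as lying below the lower quartile were chosen after their values were seen. Lists left out the 8 genes, and some genes were in more than 1. Promoter letters came from RefSeq, GRCh38.p14. Protein sequences were not analysed here. The alternatives were a replicate block, leaving out each array in turn, 2 normalisations, eBayes trend and robust settings, filters on probe sets and other probe sets per gene.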

Additional observations from a re-analysis of the deposited data

How the results depend on the processing

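The calls of RRAGA, RRAGC, RRAGD, MITF and TFEC did not change in any of the 14 settings run on them. For RRAGA, RRAGC, MITF and TFEC, with a single probe set each, choosing or averaging sets could not change the difference. RRAGB without 1 array ran from 0.053 to 0.21 and passed without control replicate 1. TFEB fell short of the threshold, at 0.12, with the probe set brightest in the control arrays, a setting added after the data were seen. TFE3 was 0.030 after median centring and 0.13 with the probe set of largest variance, and passed in neither. Leaving out probe sets ending in _s_at or _x_at lowered the probe sets that passed from 5137 to 2348 and the pathway genes from 45 to 24, with fewer tested, and turned NFATC1 to -0.0085. That setting holds no value for the Rag genes and MITF. Replicate numbers were shared by the groups. Deviations of same-numbered arrays correlated at r = 0.14, 0.12 and -0.009 and those of arrays of different number at -0.18 to 0.096. Numbers 1 and 2 thus leaned together and number 3 did not, and control replicate 3 correlated best with OCRL siRNA replicate 2, so the numbers were not taken to pair the arrays. With the replicate block 4571 probe sets and 39 pathway genes passed, RRAGD stayed at 1.61 and no call of the 8 genes changed. DCSTAMP, dim on every array, lost its call in 8 of 13 settings. Median centring moved the median difference of all probe sets from -0.007 to -0.053.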
